A study of Mus musculus with 6 samples.

Results

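Epicardial and proepicardial markers were followed as a group of 10 genes given by symbol: Wt1, Tcf21, Upk3b, Upk1b, Krt19, Gpm6a, Bnc1, Lrrn4, Lhx9 and Msln. Of these, 9 were among the 15330 rows of the normalized count table and passed the filter of a mean of at least 10 normalized counts. Msln, which encodes the mesothelial surface protein mesothelin, was not among the rows and is not analysed here. RNA had been sequenced from micro-dissected, stage-matched mouse hearts at embryonic day 9.5. The mutant hearts were homozygous for H2-URI d/d, an allele made with CRISPR-Cas9 in which 373 kb on the upstream side of Hand2 are missing. The lost interval runs from a predicted far domain anchor to the Uph long non-coding RNA beside the gene. The hearts they were set against were wildtype. Each genotype had 3 libraries, of which 2 carried the label F and 1 (replicate 3) the label M, and all 6 carried batch number 1. The labels do not give the strain, the number of founder lines or whether a library held 1 heart or a pool. The p-values therefore reflect only how far these libraries vary, which may be partly technical. The purpose of the study, per its design text, was to learn how far Hand2 and the genes downstream of it depend on this interval.

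The epicardium is the mesothelial sheet that covers the heart. It forms from the proepicardium, a cluster of coelomic cells at the venous pole and septum transversum, whose cells move onto the bare myocardium at about the stage sampled here and later give rise to cardiac fibroblasts and vascular support cells. Hand2, a helix-loop-helix regulator active in myocardium, endocardium and neural crest derivatives, is also known to be needed for normal epicardial development in the mouse. The markers were measured in whole hearts, so more epicardial cells and more RNA per cell cannot be told apart.

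Hand2 itself stood at 1025, 1158 and 1163 normalized counts in deletion hearts, against 3911, 3789 and 4407 in wild-type hearts. The deletion mean was 27.6% of the wild-type mean. Its log2 fold change was -1.85 (limma adjusted p = 1.51e-05, SE 0.081). The libraries held 25583210 to 32043595 recovered reads, and all 8 cardiomyocyte markers were among the rows, with Actc1, cardiac actin, at 195213 to 258617 normalized counts over the 6 libraries. Of these 8 markers 0 passed in limma and 2 were at an unadjusted p under 0.05, which 21.4% of all genes reached, and the most abundant, Actc1 and Myh7, had log2 fold changes of 0.025 and 0.18. Columns were given to samples by the code in each sample's title. For 4 of the 6 samples the recorded file carries a code of the other genotype, and under that record Hand2 had a log2 fold change of 0.57, 0 genes passed the threshold in limma (414 at an unadjusted p under 0.05) and 0 markers passed.

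Of the 9 measured markers, 2 rose in deletion hearts, 0 fell and 7 did not pass the threshold of an adjusted p under 0.05 in limma. The 2 that rose were Krt19, a keratin of simple and mesothelial epithelia, at 1.81-fold the wild-type mean, and Gpm6a, a membrane glycoprotein of the proteolipid family best known from neurons, at 2.38-fold. Over all 15330 genes the same test called 1.55% higher, 1.5% lower and 3.05% in either direction. The median log2 fold change of the 9 markers was 0.47, against -0.0073 for all genes, with a range of -0.51 to 1.25. That median was 0.21 without wild-type replicate 1 and 0.85 without wild-type replicate 2. At an unadjusted p under 0.05 there were 5 of the 9 markers and 21.4% of all genes. The markers were not alone in this. In epicardial lists described below it was 5 of 8 other epicardial and mesothelial genes and 7 of 14 attachment and signalling genes. Among regulators and transition genes it was 7 of 12. The 5 markers were all higher in deletion hearts, while each of these lists held genes of both directions. In 3 of the 9, namely Tcf21, Krt19 and Gpm6a, all deletion libraries lay above all wild-type libraries. Groups that did not overlap were found for 27.4% of all genes, 12.9% higher and 14.5% lower in deletion hearts. In the same order, the lists just named had 4 of 8, 5 of 14 and 6 of 12 such genes, of both directions in each list. An exact two-sided permutation test of any single gene cannot go below p = 0.1 with 3 against 3, and gave 0.1 for each of these 3 markers.

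Gpm6a is the one marker that lies on chromosome 8, the chromosome of Hand2, and the only called marker with a promoter window in the RefSeq table (build GRCm38.p6, another build than the GRCm39 that the submitters' processing notes name). Both of its windows are printed because the gene changed most among the markers. They hold 250 bases before and 50 bases from each annotated start, with the E-box motif CANNTG, the kind of site bound by basic helix-loop-helix factors such as Hand2 and Tcf21, in capitals.
Gpm6a, upstream start, chr8:54779184-54779483, plus strand: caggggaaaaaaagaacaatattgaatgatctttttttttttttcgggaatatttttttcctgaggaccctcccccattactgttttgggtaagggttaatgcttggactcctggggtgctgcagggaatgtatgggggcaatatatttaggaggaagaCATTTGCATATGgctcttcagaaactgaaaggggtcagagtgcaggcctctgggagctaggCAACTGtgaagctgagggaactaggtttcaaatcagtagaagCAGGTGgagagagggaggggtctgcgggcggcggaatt
Gpm6a, downstream start, chr8:54954478-54954777, plus strand: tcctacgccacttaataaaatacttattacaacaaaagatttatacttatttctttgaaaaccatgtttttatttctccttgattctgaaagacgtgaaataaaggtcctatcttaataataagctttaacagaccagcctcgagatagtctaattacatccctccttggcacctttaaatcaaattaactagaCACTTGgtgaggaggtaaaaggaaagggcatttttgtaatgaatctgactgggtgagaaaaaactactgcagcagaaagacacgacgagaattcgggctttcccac
Motifs were searched on both strands. The upstream window held 4 E-boxes, of which CATTTG and CATATG lie end to end at -91 and -85 bases from the start, CAACTG lies at -30 and CAGGTG at 12. The downstream window held 1, CACTTG at -56. At least 1 E-box was present in 72.3% of all 32851 windows of the table and at least 4 in 6.49%. Neither Gpm6a window held CATCTG, which was in 17.2% of all windows, or the GATA motif AGATAA, which was in 11.2%. Windows were found for 6 of the 10 markers. Lhx9 and Upk3b had 1 E-box each (CATGTG in both), Lrrn4, Bnc1 and Tcf21 had 0, and the Tcf21 window had the single AGATAA among the markers. A match is only a run of letters in this window, and which start the hearts use was not measured.

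Krt19 stood at 2354, 2376 and 2322 normalized counts in deletion hearts, against 1255, 1286 and 1356 in wild-type hearts. The libraries within each genotype were nearly level, and the gap between genotypes was many times their spread. The means were 2351 ± 27.2 in deletion and 1299 ± 51.7 in wild-type hearts (SD, n = 3 each), a log2 fold change of 0.86 (limma adjusted p = 1.52e-04, SE 0.062). Krt19 is a type I keratin that forms filaments with the type II keratin Krt8, and Krt18 is the other type I partner of Krt8. Krt8 averaged 3214 ± 222 in deletion and 3101 ± 431 in wild-type hearts (SD, n = 3 each), and Krt18 averaged 1810 ± 93.3 in deletion and 1865 ± 367 in wild-type hearts. Their log2 fold changes were 0.059 (95% interval -0.17 to 0.29) and -0.026 (-0.31 to 0.25), and neither passed (adjusted p = 0.783 and 0.928, limma).

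Gpm6a stood at 179, 139 and 154 normalized counts in deletion hearts, against 79.5, 55.2 and 64.1 in wild-type hearts. The lowest deletion library was above the highest wild-type library. The means were 158 ± 20.3 in deletion and 66.2 ± 12.3 in wild-type hearts (SD, n = 3 each), a log2 fold change of 1.25 (limma adjusted p = 0.00859, SE 0.18). These values rest on 143 to 170 recovered reads per deletion library and 62 to 70 per wild-type library. Gpm6b, a relative of the same family looked at after its values were seen, stood at -0.012 on the same scale and did not pass (adjusted p = 0.979, limma). In RefSeq gene order Gpm6a lies on the upstream side of Hand2, the side from which the interval was deleted, with 36 annotated genes in between, of which 4 were among the rows. Between the pair, 0 genes were called higher and 1, Hand2os1, was called lower. Hand2os1, a long non-coding RNA that starts beside Hand2, stood at 786, 790 and 708 in deletion hearts, against 2031, 2939 and 2751 in wild-type hearts (log2 fold change -1.74, limma adjusted p = 1.52e-04). The lost interval ends at a long non-coding RNA beside Hand2, so part of the Hand2os1 template may itself be missing in deletion hearts. How much of Hand2os1 the deletion takes in was not tested, so its fall cannot be read as a change of expression alone. The strand setting of the counting is not given, so Hand2os1 reads cannot be told apart from those of overlapping genes. The other 3 were Fbxo8 (log2 fold change -0.17), Cep44 (0.10) and Hpgd (0.48), none past the threshold. These neighbours were looked at after the values were seen. Whether the position of Gpm6a bears on its level was not tested.

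The transcription factors Wt1, Tcf21 and Lhx9 were all higher on average in deletion hearts, but none passed the threshold over all genes. Bnc1, a zinc finger protein described below, had a lower plain mean in deletion hearts (117 normalized counts, against 150 in wild-type hearts). Tcf21, a basic helix-loop-helix factor of epicardium and fibroblast precursors, stood at 287, 313 and 489 normalized counts in deletion hearts, against 201, 224 and 155 in wild-type hearts. The genotypes did not overlap, and deletion replicate 3 stood well above the other two deletion libraries. Its log2 fold change was 0.88 (limma adjusted p = 0.0545, SE 0.21), just outside the threshold. Tcf21 was called in 4 of the 19 alternatives that kept the genotypes as titled. These were DESeq2 on recovered reads (0.92, adjusted p = 6.65e-04), limma after rescaling to equal totals without haemoglobin genes (adjusted p = 0.0464), limma after removal of a length and GC trend (adjusted p = 0.0365) and limma without wild-type replicate 2. In the others adjusted p ran from 0.0513 in edgeR to 0.167 in limma without wild-type replicate 3, and the lowest log2 fold change was 0.65, without deletion replicate 3.

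Wt1, a zinc finger factor and the classical epicardial marker, stood at 472, 516 and 546 normalized counts in deletion hearts, against 258, 489 and 396 in wild-type hearts. Wild-type replicate 2 lay within the deletion range and the other two wild-type libraries below it. The log2 fold change was 0.47 (limma adjusted p = 0.207, SE 0.20), with a 95% interval of 0.029 to 0.91, and was 0.21 without wild-type replicate 1 (limma adjusted p = 0.317). Lhx9, a LIM homeodomain factor of coelomic epithelium, stood at 93.9, 172 and 235 in deletion hearts, against 40.9, 123 and 59.5 in wild-type hearts. The genotypes overlapped, since wild-type replicate 2 was above deletion replicate 1. Its log2 fold change was 1.21 (limma adjusted p = 0.132, SE 0.41).

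The mesothelial surface and differentiation genes Upk3b, Bnc1 and Lrrn4 varied more between libraries of one genotype than between genotype means. Upk3b, a uroplakin of the mesothelial membrane, stood at 122, 177 and 401 normalized counts in deletion hearts, against 165, 509 and 133 in wild-type hearts. Bnc1, the zinc finger protein basonuclin of mesothelial and other epithelial cells, stood at 53.8, 80.8 and 217 in deletion hearts, against 39.7, 362 and 49.4 in wild-type hearts. Lrrn4, a leucine-rich repeat membrane protein, stood at 160, 206 and 329 in deletion hearts, against 207, 657 and 233 in wild-type hearts. In all 3 genes wild-type replicate 2 was the highest library and deletion replicate 3 the second highest. Within the deletion group the highest library was 3.27 times the lowest for Upk3b, 4.03 times for Bnc1 and 2.05 times for Lrrn4, and within the wild-type group 3.83, 9.11 and 3.18 times. Their log2 fold changes were -0.12, 0.13 and -0.51, with 95% intervals of -1.27 to 1.04, -1.58 to 1.85 and -1.42 to 0.39. The sign for Bnc1 was negative in edgeR (-0.38) and DESeq2 (-0.35). Adjusted p was 0.920, 0.941 and 0.502 (limma).

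Upk1b, a tetraspanin that pairs with Upk3b-type uroplakins, stood at 62.3, 50.1 and 94 normalized counts in deletion hearts, against 51.1, 58.7 and 61.3 in wild-type hearts. The genotypes overlapped, and deletion replicate 3 was again high. Its log2 fold change was 0.22 (limma adjusted p = 0.645, SE 0.24). It rests on 54 to 87 recovered reads per deletion library and 45 to 67 per wild-type library.

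**Figure D1:**
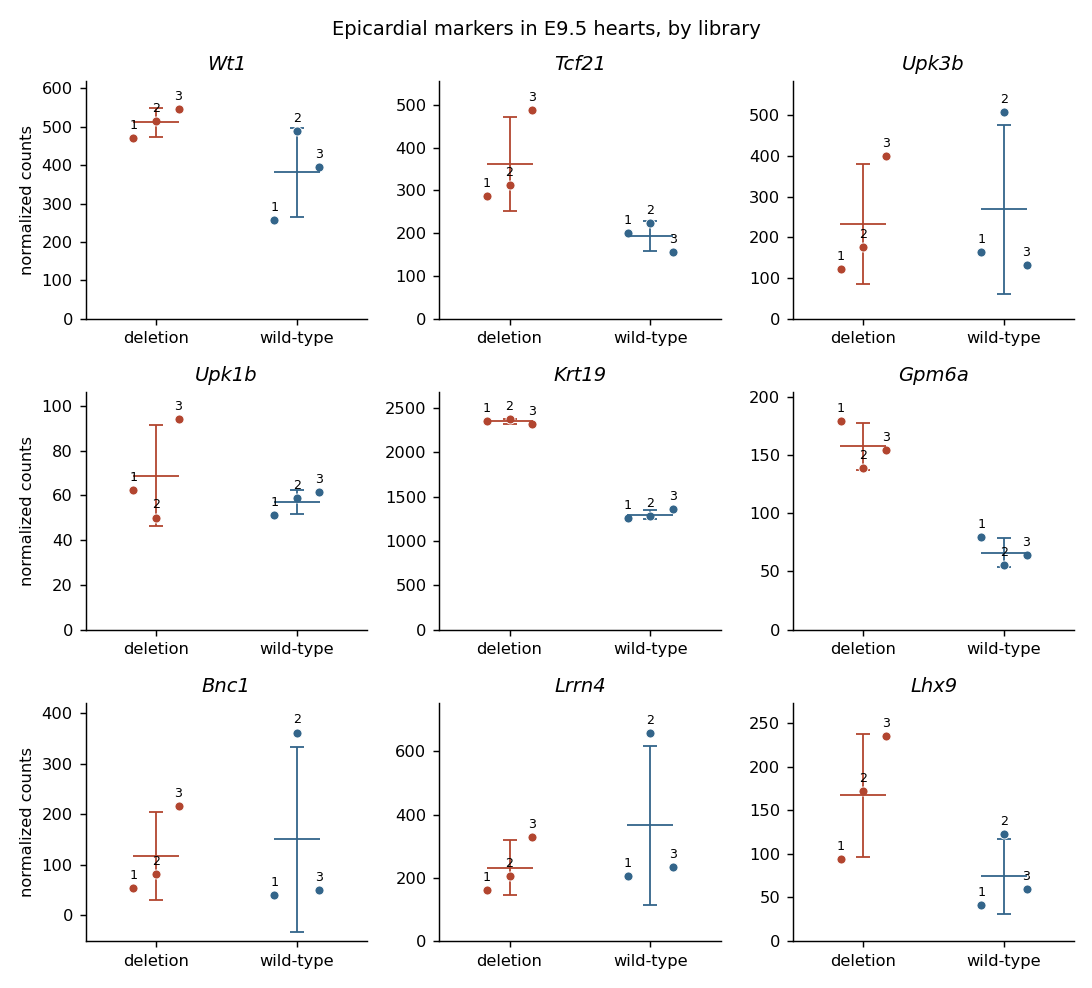
Normalized counts (vertical axes, linear) of the 9 measured markers in each deletion and wild-type library, with replicate numbers, group means (horizontal bars) and SD (error bars, n = 3). Krt19, Gpm6a and Tcf21 show no overlap between genotypes, and wild-type replicate 2 stands above all other libraries for Upk3b, Bnc1 and Lrrn4.

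The spread between libraries therefore split the markers. The coefficient of variation of Krt19 was 1.16% in deletion and 3.98% in wild-type hearts, below the medians over all genes of 6.81% and 9.86%. For Bnc1 it was 74.7% in deletion and 122% in wild-type hearts, for Upk3b 63.1% and 77.6%, and for Lrrn4 37.7% and 69.1%. Deletion replicate 3 was the highest library for 4 of the 9 markers (Wt1, Tcf21, Upk1b and Lhx9) and the lowest for 0, while wild-type replicate 2 was highest for 3 and lowest for 1, Gpm6a. Wild-type replicate 1 was the lowest library for 4 markers, Wt1, Krt19, Bnc1 and Lhx9.

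**Figure D2:**
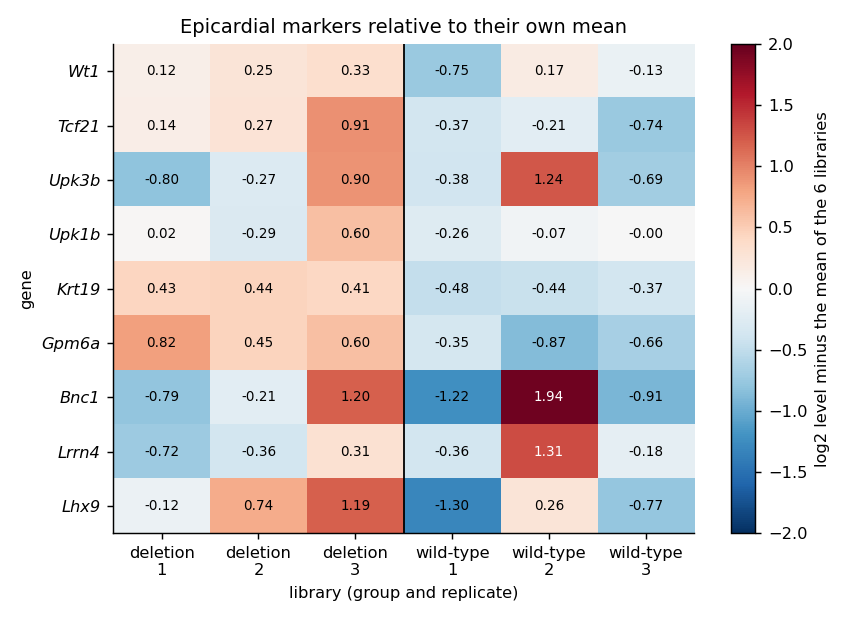
Level of each of the 9 measured markers (rows) in each library (columns) as log2(normalized count + 1) minus its mean over the 6 libraries, from blue (lower) to red (higher). Krt19 lies between 0.41 and 0.44 in all deletion libraries and between -0.48 and -0.37 in all wild-type libraries, whereas Bnc1 reaches 1.20 in deletion replicate 3 and 1.94 in wild-type replicate 2 and is below 0 in the remaining libraries.

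The counts were repeated with each library left out in turn, and without both deletion replicate 3 and wild-type replicate 2, which stood apart in the mesothelial genes. Without wild-type replicate 2, 5 of the 9 markers were called higher. They were Krt19, Gpm6a, Tcf21 (log2 fold change 1.00, adjusted p = 0.0332), Wt1 (0.67, adjusted p = 0.0469) and Lhx9 (1.64, adjusted p = 0.0282, all limma). In the same fit 1161 of all 15330 genes were called, 466 higher and 695 lower, against 467 with all 6 libraries. Wild-type replicate 2 was the highest wild-type library for Tcf21, Wt1 and Lhx9, so leaving it out raises their fold changes by itself. Leaving out any other single library left 2 called, Krt19 and Gpm6a in each case. Without both wild-type replicate 2 and deletion replicate 3, a fit chosen after these values were seen, only Krt19 passed, and Gpm6a was at 1.14 on the log2 scale with an adjusted p of 0.0517. Over the 19 alternatives that kept the genotypes as titled, Krt19 passed in 19, with log2 fold changes of 0.83 to 0.90, and Gpm6a in 18, with 1.13 to 1.38.

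**Figure D3:**
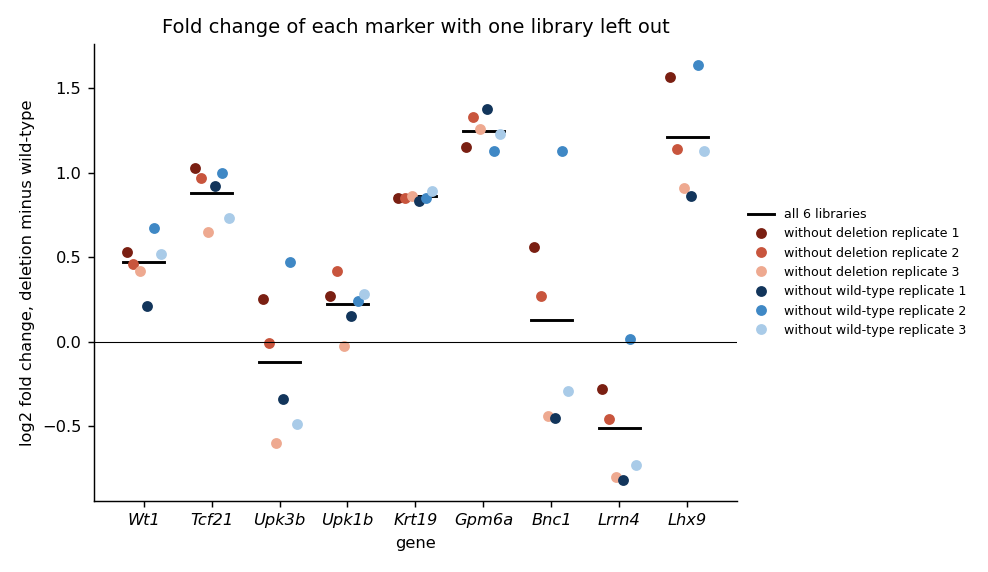
Log2 fold change (deletion minus wild-type, vertical axis) of each measured marker with all 6 libraries (black bars) and with each library left out in turn (points, red shades for deletion and blue shades for wild-type libraries). Krt19 and Gpm6a moved little, while Upk3b ranged from -0.60 to 0.47 and Bnc1 from -0.45 to 1.13, with the highest value in each case without wild-type replicate 2.

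Per length of the longest annotated transcript, Krt19 was the most abundant marker, with a mean level of 1491 normalized counts per kb in deletion and 824 in wild-type hearts. In deletion hearts Tcf21 (203 per kb) and Wt1 (166 per kb) came next and their libraries overlapped. The other markers followed with mean levels of 25.2 to 66.1 per kb, and each neighbour in that order overlapped the next. In wild-type hearts Wt1 (123 per kb), Tcf21 (108 per kb), Lrrn4 (98.5 per kb), Upk3b (76.1 per kb), Bnc1 (32.4 per kb) and Upk1b (30.1 per kb) formed a run of overlapping neighbours. Gpm6a (20.6 per kb) and Lhx9 (15.1 per kb) came last in wild-type hearts, with Gpm6a below the range of Upk1b. In deletion hearts Gpm6a, at 49.1 per kb, overlapped Upk1b at 36.3 per kb. The transcripts used in these hearts were not measured, so a level per length is approximate.

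Of 12 other genes of epicardium and mesothelium, 8 were among the rows. In deletion hearts 0 rose and 1 fell, against 1.55% of all genes called higher and 1.5% called lower. The median log2 fold change was -0.0013. The gene that fell was Bves, a membrane protein first described in developing epicardium and also present in heart muscle, which averaged 2533 ± 105 normalized counts in deletion and 3403 ± 349 in wild-type hearts (SD, n = 3 each; log2 fold change -0.42, adjusted p = 0.0263, limma). Its call was lost when any deletion library or wild-type replicate 3 was left out, at adjusted p of 0.0781 to 0.130. Tbx18, the T-box factor of proepicardium and sinus venosus, was looked at after its values were seen. It stood at 1120, 1139 and 1850 in deletion hearts, against 680, 974 and 790 in wild-type hearts, with no overlap (log2 fold change 0.72, limma adjusted p = 0.0738). Tbx18 was called without wild-type replicate 2 (0.86, adjusted p = 0.0350). Also chosen after its values were seen, Sema3d, a semaphorin of proepicardium, differed by 0.81 on the log2 scale (limma adjusted p = 0.231) and by 0.42 without deletion replicate 3. Rarres2, the precursor of chemerin and likewise chosen afterwards, differed by -0.65 (limma adjusted p = 0.0684). The largest change in the list was a lower level of Nkain4, also chosen afterwards. It stood at 21.1, 41.8 and 32.4 in deletion hearts, against 101, 54.3 and 42.1 in wild-type hearts. The groups narrowly did not overlap (log2 fold change -0.98, limma adjusted p = 0.154). Scx, Muc16, C3 and Dmkn were not among the rows.

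**Figure D4:**
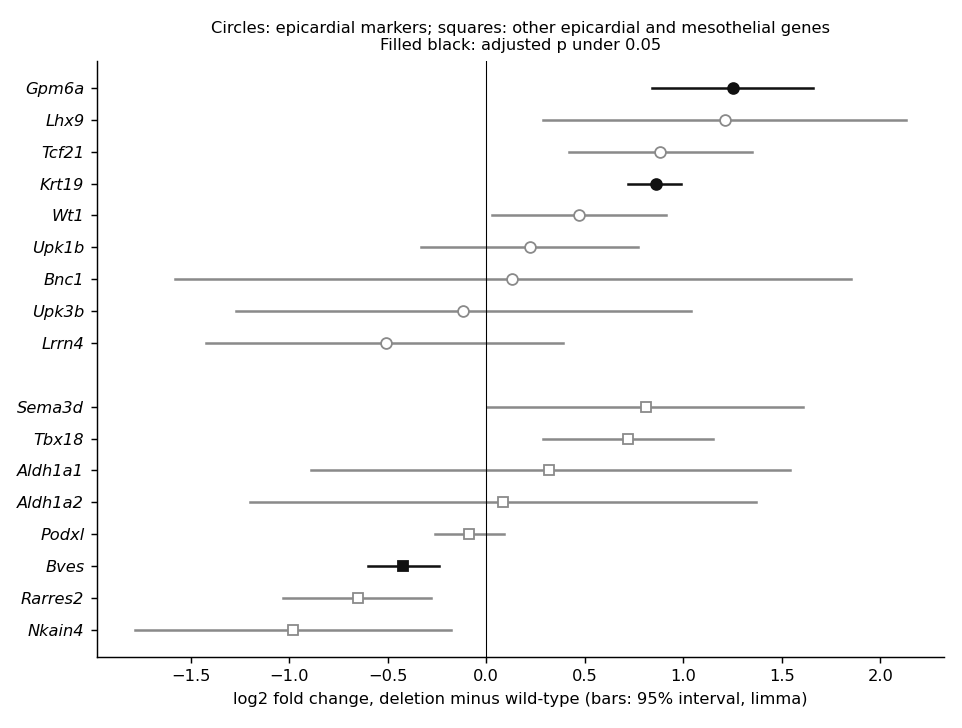
Log2 fold change (deletion minus wild-type, horizontal axis) with 95% intervals from limma for the 9 measured epicardial markers (circles) and 8 other epicardial and mesothelial genes (squares), with filled black symbols for adjusted p under 0.05. Krt19 and Gpm6a rose and Bves fell, while the intervals of Bnc1, Upk3b, Lrrn4, Upk1b, Aldh1a1, Aldh1a2 and Podxl span 0.

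Among 14 measured genes of epicardial attachment and signalling, 0 rose and 2 fell (median log2 fold change 0.079). Over all genes 1.55% were called higher and 1.5% lower. Pdgfrb, the receptor that drives mural cell formation from epicardium, averaged 490 ± 57.1 normalized counts in deletion and 870 ± 97.1 in wild-type hearts (SD, n = 3 each; log2 fold change -0.83, adjusted p = 0.00630, limma). Its libraries did not overlap, at 424, 519 and 527 in deletion hearts against 973, 858 and 780 in wild-type hearts. Tmsb4x, the actin-binding thymosin beta, fell by 0.40 on the log2 scale (limma adjusted p = 0.0205), a call lost without any deletion library or without wild-type replicate 3 (adjusted p of 0.0613 to 0.120). With a length and GC trend removed it stood at -0.24 and did not pass (adjusted p = 0.0613, limma). Itga4, the integrin subunit by which epicardial cells hold to Vcam1 on myocardium, was chosen after its values were seen. It stood at 410, 644 and 1194 in deletion hearts, against 269, 479 and 464 in wild-type hearts (log2 fold change 0.80, adjusted p = 0.220, limma), and deletion replicate 3 was again the highest library. Without that library Itga4 stood at 0.39 on the log2 scale, and without wild-type replicate 1 at 0.53. Of 12 regulators and transition genes 0 rose and 1 fell. That was Twist1, a mesenchymal factor with 186, 210 and 212 in deletion hearts, against 368, 651 and 372 in wild-type hearts (log2 fold change -1.14, adjusted p = 0.0196, limma), not called without any one deletion library (adjusted p of 0.0680 to 0.0899). Of 10 measured relatives and filament partners of the markers 0 passed (median 0.17).

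Other tissues that border the heart also express some of these markers, and their genes moved between libraries. Of 14 foregut, pharyngeal and surface epithelial genes 10 were among the rows, and Foxa2, Krt5, Krt14 and Trp63 were not. Their summed level was 739 to 1030 normalized counts in deletion hearts and 404 to 1652 in wild-type hearts, with wild-type replicate 1 highest and wild-type replicate 2 at 457. Their median log2 fold change was 0.52, beside 0.47 for the epicardial markers, and 9 of the 10 had values above 0. These values average logs. By plain group means Epcam, Cdh1, Shh, Cldn6 and Grhl2 were lower in deletion hearts, at 0.706 to 0.991 of the wild-type mean. Wild-type replicate 1 was the highest library for each of them. With all libraries 0 of the 10 passed in limma (2 at an unadjusted p under 0.05, against 21.4% of all genes). When wild-type replicate 1 was left out 4 passed, in a fit that called 616 of all 15330 genes, 334 of them higher. The largest difference, looked at after its values were seen, was that of Pax9, a factor of pharyngeal endoderm, with 57, 26 and 118 in deletion hearts, against 26.1, 4.45 and 3.66 in wild-type hearts (log2 fold change 2.69, limma adjusted p = 0.0715). Its groups overlapped narrowly, and deletion replicate 3 was highest. The most abundant, the epithelial junction genes Cdh1 and Cldn6, had log2 fold changes of -0.37, the only value below 0 in the list, and 0.23. Without wild-type replicate 1 they stood at 0.09 and 1.01, and Cldn6 was then called (limma adjusted p = 0.0125). Cldn6 was below 0 in edgeR (-0.18) and DESeq2 (-0.20). Krt19 was nearly level over the wild-type libraries (1255, 1286 and 1356), and was called with any single library left out (log2 fold change 0.83 to 0.89). Whether epithelial cells bear on its level was not tested. Hepatoblast genes (4 of 8 among the rows, without Alb) summed to 255 to 1484 in deletion and 480 to 996 in wild-type hearts, and the most abundant, Afp, the fetal serum protein, had a log2 fold change of 0.37, which ran from -0.23 to 1.34 as single libraries were left out. Apoa1, an apolipoprotein, had -1.18 (adjusted p = 0.227, limma), but -1.82 and a call without wild-type replicate 2 (limma adjusted p = 0.0222) and -0.67 without wild-type replicate 3. Septum transversum genes (5 of 5) summed to 11240 to 12506 in deletion and 10364 to 13015 in wild-type hearts, where the abundant Alcam and Wnt2 had log2 fold changes of 0.068 and -0.21. Most of each sum was Alcam, at 7901 to 10666, so the sum says little of the low genes. Those were looked at after their values were seen. Hlx stood at 1.17, Mab21l2 at -0.68 and Foxf1 at 0.17 on the log2 scale (limma adjusted p = 0.167, 0.162 and 0.879). Coelomic and urogenital genes (2 of 6, Osr1 at 0.35 and Pax8 at -1.23 on the log2 scale) summed to 186 to 269 in deletion and 117 to 329 in wild-type hearts, and the value of Pax8 ran from -2.21 without deletion replicate 2 to -0.086 without deletion replicate 3. Nr5a1, Emx2, Pax2 and Six2 were not among the rows. With all 6 libraries 0 genes of the hepatoblast, septum transversum and coelomic lists passed in limma (1, 2 and 0 at an unadjusted p under 0.05, against 21.4% of all genes). Without wild-type replicate 2, 1 hepatoblast gene and 1 septum transversum gene were called, in a fit that called 1161 of all 15330 genes. Of 5 sinus venosus genes 1 rose, Tbx3, a T-box factor of the conduction system (log2 fold change 0.42, adjusted p = 0.0303, limma), not called without deletion replicate 1 or 2 or wild-type replicate 3. Over all genes 1.55% were called higher. The part of these tissues in the marker values was not tested. The 9 markers summed to 3785, 4031 and 4789 in deletion hearts, against 2296, 3765 and 2508 in wild-type hearts, and Krt19 was the largest single term in each.

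As a description of pattern, the mean standardized profile of the 9 markers was -0.00088, 0.18 and 1.08 in deletion replicates 1 to 3 and -0.90, 0.31 and -0.66 in wild-type replicates 1 to 3. The 5 other genes most like it over the 6 libraries were Tusc1 (Pearson r = 0.995), Pim1 (0.991), Pdzrn3 (0.990), Usp48 (0.985) and Adgrg1 (0.985). These values describe 6 libraries and carry no test. None of the 5 passed in limma, at log2 fold changes of 0.094 to 0.42.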

How the data were processed

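Bulk mRNA sequencing was done by the authors on 3 H2-URI d/d and 3 wild-type hearts, from 300 ng of total RNA with a stranded kit, per the labels' protocols. Per the submitters' processing notes, the tools were STAR 2.7.9a, featureCounts, Subread 2.0.1, DESeq2 1.30.1 and bcl2fastq 2.20, and the build was GRCm39. Not given in the sources used here were the annotation, the strand setting and any gene filter. The values were deposited as normalized counts, a signal per gene with no stated scaling. In every library 100% of them divided into whole reads within 0.01. Libraries held 25583210 to 32043595 such reads. Columns were assigned by the code in each title, while 4 of 6 samples are recorded with a file of the other genotype.

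From these values log2(normalized count + 1) was fitted over all 15330 genes with limma 3.58.1 (R 4.3.3, intensity trend, Benjamini-Hochberg adjusted p under 0.05, mean of at least 10, which removed 0 genes). Fold changes understate low genes. Recovered reads were tested with edgeR 4.0.16 and DESeq2 1.42.0 as alternatives, beside other pseudocounts, filters, scalings, covariates and left-out libraries, and 1 alternative was added after seeing the data. The fit was tested on simulated data, where false calls were somewhat above the nominal level and changes of low fold were often missed. Of 1598 rows with an Ensembl ID, 1380 were given a symbol. The genes and lists were chosen with earlier results of these data known. Named genes were all markers, up to 4 called genes per list (otherwise the most abundant 2) and the 5 most similar profiles. Exceptions are marked where they occur.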

Additional observations from a re-analysis of the deposited data

How the results depend on the processing

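With 467 genes called in the reported fit, 146 were called without the intensity trend, 1139 in DESeq2, 206 with the replicate number as a block and 238 without wild-type replicate 2 and deletion replicate 3. Leaving out 1 library gave 103 to 1161 genes, the highest without wild-type replicate 2. The share called higher was 50.7%, against 65.3% (393 of 602) after rescaling to equal totals without haemoglobin genes, 41.1% (218 of 530) with a length and GC trend removed, 40.1% without wild-type replicate 2 and 34.5% without it and deletion replicate 3. Of the 9 markers 2 were called, and 3 (with Tcf21) under that rescaling, in DESeq2 and with a length and GC trend removed. Leaving out 1 library gave 2 to 5, and without wild-type replicate 2 and deletion replicate 3 the number was 1. The 5 called genes of the other lists became 0 without the trend, 11 in DESeq2, 2 with the replicate block, and 1 to 9 with 1 library left out. The same-number correlations between genotypes were -0.035, -0.12 and -0.14, so the numbers were not taken as pairs, and the block kept both marker calls. The cause of these shifts was not tested.

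With columns taken by the file record, 0 genes, 0 markers and 0 list genes were called, and signs turned for Wt1 (-0.16), Upk3b (1.18), Krt19 (-0.34), Gpm6a (-0.41), Lrrn4 (0.84), Hand2 (0.57), Bves (0.013), Krt18 (0.17), Pdgfrb (0.45), Tmsb4x (0.12), Twist1 (0.60), Alcam (-0.10), Wnt2 (0.077), Cdh1 (0.53), Tbx3 (-0.24), Actc1 (-0.093), Myh7 (-0.14) and Rarres2 (0.51). Signs also turned for Bnc1 in edgeR (-0.38) and DESeq2 (-0.35), for Cldn6 in edgeR (-0.18) and DESeq2 (-0.20), and for Krt18 in the haemoglobin-free totals (0.020). Without wild-type replicate 2 and deletion replicate 3 they turned for Upk1b (-0.0021), Krt18 (0.017), Afp (-0.10), Osr1 (-0.12), Cldn6 (-0.17) and Actc1 (-0.057). Over these left-out libraries, singly or as that pair, log2 fold changes ran from -0.60 to 0.47 for Upk3b, -0.025 to 0.42 for Upk1b, -0.45 to 1.13 for Bnc1, -0.82 to 0.014 for Lrrn4, -0.062 to 0.18 for Krt8, -0.18 to 0.11 for Krt18, -0.072 to 0.14 for Alcam, -0.23 to 1.34 for Afp, -0.12 to 0.73 for Osr1, -2.21 to -0.086 for Pax8, -0.21 to 1.01 for Cldn6, -0.66 to 0.09 for Cdh1 and -0.092 to 0.11 for Actc1. With all libraries none of the genes with a range here passed the threshold. Among the markers the standard errors were largest for Bnc1 (0.77), Upk3b (0.52), Lhx9 (0.41) and Lrrn4 (0.40).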
